A study of Mus musculus with 4 samples.

Results

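The interferon-induced genes described here are 34 named mouse genes that cells switch on when interferons reach them. Of these, 32 had a row among the 32285 genes of both expression libraries, and Mx1 and Mx2 had none. They were taken by symbol and set in 3 groups. The type I group held 12 measured genes (Ifit1, Ifit2, Ifit3, Isg15, Usp18, Oas1a, Oas2, Oas3, Oasl1, Oasl2, Rsad2 and Cmpk2), the gamma-type group 7 (Gbp2, Gbp3, Gbp7, Iigp1, Igtp, Irgm1 and Ifi47), and 13 others belonged to neither group. The cells came from peritoneal lavage of wild-type (WT) and knockout (KO) mice, were sorted for the leukocyte antigen CD45, and were profiled with 10x Genomics droplets in 1 expression library per genotype. All mice had eaten a high-fat diet for 3 months from an age of 4 weeks. The knocked-out gene is not reported here, and the strain and the number of mice behind each library are not given in the sources used here. A single library per genotype gives no measure of how mice vary, so genotypes are compared without a test, and every interval below covers counting error only.

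Type I interferons (alpha and beta) signal through the receptor Ifnar to a complex that holds STAT2 and IRF9, which binds interferon-stimulated response elements in the promoters of antiviral genes. Interferon gamma, made mostly by T and NK cells, signals through Ifngr to gamma-activated sites in promoters, and is the classical inducer of the guanylate-binding proteins and immunity-related GTPases that attack vacuoles holding microbes. Many genes respond to both, so the split into type I and gamma-type members is one of emphasis.

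Promoter sequences came from RefSeq. Windows on build GRCm38.p6, from 250 bases before to 50 after the transcription start, were found for 25 of the 34 genes. They were searched on both strands for the core of the interferon-stimulated response element, which is TTTC and TTTC with any 2 bases between them, and for the gamma-activated site TTCNNNGAA. The first motif occurred in the windows of 16 of 25 members (64%) against 3.99% of 27025 genes. It was present in 6 of 10 type I, 5 of 6 gamma-type and 5 of 9 other members. The other motif occurred in 6 of 25 members (24%) against 9.55% of genes. The 2 kinds of match overlapped in the windows of Bst2 and Ifitm3. The windows of 7 genes are shown for the members whose levels or shared barcodes the results below turn on. Each is given 5′ to 3′ as the 250 bases before the start, with matches to either motif in capitals. A match describes the letters only.
Ifit1, Ifit3 and Isg15 are type I members. Ifit1 (chr19:34640639-34640888, plus strand) and Ifit3 (chr19:34583279-34583528, plus strand) each held 2 matches to the first motif. Isg15 (chr4:156200819-156201068, minus strand) held 3 that overlapped, starting 78, 72 and 66 bases before the transcription start.
Ifit1: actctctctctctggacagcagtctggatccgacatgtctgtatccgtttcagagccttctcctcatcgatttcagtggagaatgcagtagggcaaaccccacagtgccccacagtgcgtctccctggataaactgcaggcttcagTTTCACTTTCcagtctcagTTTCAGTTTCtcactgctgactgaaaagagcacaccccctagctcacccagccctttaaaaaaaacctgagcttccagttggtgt
Ifit3: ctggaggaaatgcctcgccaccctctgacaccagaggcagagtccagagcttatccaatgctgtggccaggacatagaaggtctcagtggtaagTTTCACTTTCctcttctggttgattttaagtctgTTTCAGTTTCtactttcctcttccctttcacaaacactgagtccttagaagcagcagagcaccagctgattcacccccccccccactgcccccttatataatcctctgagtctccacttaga
Isg15: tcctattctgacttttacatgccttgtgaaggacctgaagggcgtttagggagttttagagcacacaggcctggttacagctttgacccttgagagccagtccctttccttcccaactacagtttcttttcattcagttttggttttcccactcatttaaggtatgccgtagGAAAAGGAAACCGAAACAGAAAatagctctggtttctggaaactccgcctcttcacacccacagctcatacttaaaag
Gbp2, Gbp7 and Igtp are gamma-type members. Gbp2 (chr3:142620413-142620662, plus strand) held 1 match to the first motif, 59 bases before the start. Gbp7 (chr3:142530086-142530335, plus strand) held 1 match to the first motif and 2 to the other. Igtp (chr11:58199306-58199555, plus strand) held 1 of each, at 34 and 45 bases.
Gbp2: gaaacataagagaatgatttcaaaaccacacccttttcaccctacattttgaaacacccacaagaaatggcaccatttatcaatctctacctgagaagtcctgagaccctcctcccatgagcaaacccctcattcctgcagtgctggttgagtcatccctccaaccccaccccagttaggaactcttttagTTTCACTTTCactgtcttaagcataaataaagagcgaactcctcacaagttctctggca
Gbp7: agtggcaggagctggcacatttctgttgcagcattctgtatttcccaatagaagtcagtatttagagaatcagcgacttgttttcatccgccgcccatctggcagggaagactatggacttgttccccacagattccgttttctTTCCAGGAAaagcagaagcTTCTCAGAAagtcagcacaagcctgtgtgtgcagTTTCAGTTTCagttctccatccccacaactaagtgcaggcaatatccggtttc
Igtp: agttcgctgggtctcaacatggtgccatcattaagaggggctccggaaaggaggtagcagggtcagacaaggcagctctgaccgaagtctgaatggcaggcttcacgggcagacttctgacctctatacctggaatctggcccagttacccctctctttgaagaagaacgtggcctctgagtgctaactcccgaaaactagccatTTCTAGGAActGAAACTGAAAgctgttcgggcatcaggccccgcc
Cxcl10 (chr5:92348890-92349139, minus strand), a chemokine with the lowest KO to WT ratio in any class among members of at least 50 UMIs, held 1 match to the first motif, 213 bases before the start.
Cxcl10: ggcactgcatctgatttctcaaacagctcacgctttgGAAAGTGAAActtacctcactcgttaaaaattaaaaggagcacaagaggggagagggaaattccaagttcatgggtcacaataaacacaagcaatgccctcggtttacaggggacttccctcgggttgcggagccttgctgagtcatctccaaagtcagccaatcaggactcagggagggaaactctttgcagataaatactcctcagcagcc

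The WT library held 10087 barcodes and 81817635 unique molecular identifiers (UMIs), and the KO library 22516 barcodes and 103953298 UMIs. After filters 9224 and 18465 barcodes remained, with medians of 6040.5 and 2974 UMIs. Barcodes were put in 6 classes by the UMIs of lineage markers. WT and KO gave 3859 and 6791 B-1 barcodes, 1630 and 3680 B-2, 1798 and 2828 T, 284 and 415 NK, 80 and 297 macrophage, and 49 and 155 dendritic barcodes. B-cell receptor contigs were found for 74.2% and 74.1% of B-1 and for 0.612% and 0.849% of T barcodes. WT barcodes were deeper in every class, with medians of 9115 and 4617 UMIs in B-1 and 9891.5 and 5213 in macrophages. The libraries shared 293 barcode sequences, and leaving these out moved no summed ratio below by more than 2.997%. Levels are given as CPM, the UMIs of a gene or group per 1000000 UMIs of the class, and are compared between classes and libraries for the same gene or group, not between genes or groups, since UMI counts are not scaled to gene length.

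The type I members were rare transcripts in every class. Summed, the 12 genes came to 41.4 CPM in WT and 33.9 CPM in KO B-1 barcodes, and to 48.3 and 47.5 CPM in B-2. T barcodes stood higher at 100.3 and 81.2 CPM, and NK at 59.5 and 57.6. Macrophages had the highest sums, 250.3 CPM in WT and 156 in KO, and dendritic barcodes 141 and 77.9 CPM. The gamma-type sum was 237 and 232 CPM in B-1, 129.6 and 131 in B-2, 457 and 455 in T and 369 and 336 in NK barcodes. In macrophages it was 429 and 238 CPM and in dendritic barcodes 239 and 127 CPM. T and NK barcodes had a higher gamma-type level than either B-cell class in both libraries.

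Within the type I group, 10 of 12 members had their highest WT level in macrophages, but single barcodes held much of that order: without the barcode with most type I UMIs in each class, 4 of 12 were highest there. The Ifit proteins bind viral RNA and stop its translation. Ifit1 was highest in WT macrophages at 8.94 CPM (8 UMIs), followed by T barcodes at 8.17 (70 UMIs). Ifit2 reached 17.9 CPM and Ifit3 19.0 CPM in WT macrophages, against 2.29 and 0.573 CPM in KO. A single WT barcode held 14 of the 16 Ifit2 and 13 of the 17 Ifit3 UMIs, and without the barcode with most type I UMIs in each library Ifit2 was at 2.25 CPM in WT and 1.73 in KO and Ifit3 at 4.51 CPM in WT and 0.575 in KO. The 2′-5′ oligoadenylate synthetases sense double-stranded RNA and activate RNase L. Oas1a stood at 53.6 and 52.1 CPM in macrophages, the highest class for it in both libraries. Oas2 was also highest there (12.3 and 15.5 CPM), whereas Oas3 was highest in T barcodes (12.1 and 9.68 CPM). Oasl1, a relative without the enzyme activity, departed from the group: its highest class was B-2 in both libraries, at 9.09 and 7.61 CPM, against 1 UMI in each library's macrophages. Oasl2 was highest in macrophages at 22.3 and 36.7 CPM. Isg15, a ubiquitin-like modifier, had the most UMIs of the group and reached 48.1 CPM in WT macrophages. Usp18, which removes Isg15 from proteins and damps the receptor, reached 15.6 CPM there. The nucleotide-modifying antiviral enzyme Rsad2 (viperin) and its genomic neighbour Cmpk2 reached 26.8 and 17.9 CPM. These maxima also leaned on the same WT barcode. Without it, WT macrophages stood at 2.25 CPM for Ifit1, 15.8 for Isg15, 6.76 for Usp18, 1.13 for Rsad2 and 9.02 for Cmpk2.

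The gamma-type members were spread over the lymphocytes, and each had its own order of classes. Gbp2, a guanylate-binding protein that coats vacuoles of microbes, was present in WT at 58.8 in B-1, 16.7 in B-2, 46.3 in T, 30.2 in NK, 149.7 in macrophage and 97.4 in dendritic barcodes (CPM). In KO it was at 61.1 in B-1, 19.5 in B-2, 48.7 in T, 29.9 in NK, 52.7 in macrophage and 23.9 in dendritic barcodes. B-1 barcodes thus stood above B-2 in both libraries, and the WT maximum in macrophages was not found in KO. Gbp3 was at 51.3 in B-1, 26.1 in B-2, 23.5 in T, 26.3 in NK, 70.4 in macrophage and 45.8 in dendritic barcodes (CPM) in WT. In KO Gbp3 was at 47.9 in B-1, 30.4 in B-2, 24.7 in T, 13.8 in NK, 67.6 in macrophage and 22.8 in dendritic barcodes. Gbp7 was at 68.8 in B-1, 15.5 in B-2, 67.0 in T, 85.8 in NK, 50.3 in macrophage and 9.55 in dendritic barcodes (CPM) in WT. In KO Gbp7 was at 63.2 in B-1, 19.7 in B-2, 62.5 in T, 79.4 in NK, 45.8 in macrophage and 8.30 in dendritic barcodes, so that NK was highest and dendritic lowest in both libraries. Igtp (Irgm3), an immunity-related GTPase, was at 12.01 in B-1, 11.6 in B-2, 74.9 in T, 21.5 in NK, 27.9 in macrophage and 5.73 in dendritic barcodes (CPM) in WT. In KO Igtp was at 12.5 in B-1, 9.20 in B-2, 68.0 in T, 20.7 in NK, 11.5 in macrophage and 7.27 in dendritic barcodes. Its highest class was T in both libraries. Ifi47, another immunity-related GTPase, was at 34.0 in B-1, 42.6 in B-2, 221 in T, 185 in NK, 97.2 in macrophage and 40.1 in dendritic barcodes (CPM) in WT. In KO Ifi47 was at 34.0 in B-1, 38.3 in B-2, 220.3 in T, 174 in NK, 38.4 in macrophage and 32.2 in dendritic barcodes. For Ifi47 the T and NK levels stood above those of every other class in both libraries. Irgm1, which regulates the other GTPases of the family, was highest in dendritic barcodes (40.1 and 31.1 CPM). Iigp1, the GTPase that disrupts vacuole membranes, had 32 WT and 44 KO UMIs in T barcodes (3.73 and 5.68 CPM), while the other 5 classes together had 1 WT and 5 KO UMIs.

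The members of neither group held the most UMIs. Ifi27l2a, a small mitochondrial protein, was at 266 in B-1, 279 in B-2, 330.1 in T, 4.88 in NK, 445 in macrophage and 294 in dendritic barcodes in WT (CPM). In KO it was at 202 in B-1, 222 in B-2, 265 in T, 4.61 in NK, 437 in macrophage and 308 in dendritic barcodes. It was therefore abundant in 5 classes and nearly absent from NK barcodes, with T to NK ratios of 67.7 in WT and 57.5 in KO. Ifitm3, a membrane protein that blocks virus entry, was at 10.4 in B-1, 2.07 in B-2, 19.95 in T, 0.975 in NK, 4203 in macrophage and 3517 in dendritic barcodes in WT. In KO it was at 10.6 in B-1, 8.41 in B-2, 35.8 in T, 8.06 in NK, 4366 in macrophage and 3465 in dendritic barcodes, so that myeloid and lymphoid classes stood far apart in both libraries. Ifi209, of the family of DNA-binding Ifi200 proteins, was at 67.0 in B-1, 156 in B-2, 84.8 in T, 64.4 in NK, 40.2 in macrophage and 28.7 in dendritic barcodes (CPM) in WT. In KO Ifi209 was at 73.3 in B-1, 160.4 in B-2, 80.0 in T, 104 in NK, 28.6 in macrophage and 38.4 in dendritic barcodes, so that B-2 was highest in both libraries. Bst2 (tetherin), which holds budding viruses at the cell surface, was at 69.5 in B-1, 60.1 in B-2, 102 in T, 62.4 in NK, 143 in macrophage and 153 in dendritic barcodes (CPM) in WT. In KO Bst2 was at 73.8 in B-1, 66.7 in B-2, 109 in T, 70.2 in NK, 164 in macrophage and 168 in dendritic barcodes. Zbp1, a sensor of Z-form nucleic acid, was at 20.1 in B-1, 17.1 in B-2, 44.3 in T, 50.7 in NK, 52.5 in macrophage and 42.0 in dendritic barcodes (CPM) in WT. In KO Zbp1 was at 19.8 in B-1, 16.0 in B-2, 42.2 in T, 46.1 in NK, 38.4 in macrophage and 30.1 in dendritic barcodes. Slfn5, a Schlafen protein, was at 17.0 in B-1, 20.4 in B-2, 37.2 in T, 6.83 in NK, 58.1 in macrophage and 65.0 in dendritic barcodes (CPM) in WT. In KO Slfn5 was at 18.9 in B-1, 25.0 in B-2, 40.4 in T, 5.76 in NK, 58.4 in macrophage and 72.7 in dendritic barcodes, so that NK was lowest in both libraries. Stat2, the signal transducer of the type I receptor, was at 14.5 in B-1, 25.2 in B-2, 11.0 in T, 9.75 in NK, 20.1 in macrophage and 13.4 in dendritic barcodes (CPM) in WT. In KO Stat2 was at 15.0 in B-1, 23.3 in B-2, 12.4 in T, 13.8 in NK, 13.7 in macrophage and 10.4 in dendritic barcodes. It was highest in B-2 in both libraries. Of the others, Ifi204, another Ifi200 protein, was highest in macrophages (49.2 and 36.7 CPM). Phf11d was highest in dendritic (61.1 and 28.0) and Xaf1 in NK barcodes (39.0 and 31.1). Rtp4 was highest in macrophages (35.8 and 48.7), as was Cxcl10 in WT (112 CPM). Ifi44 had 5 WT UMIs and 1 KO UMI in all 6 classes. Of the 32 members, 23 had the same highest class in both libraries.

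**Figure D1:**
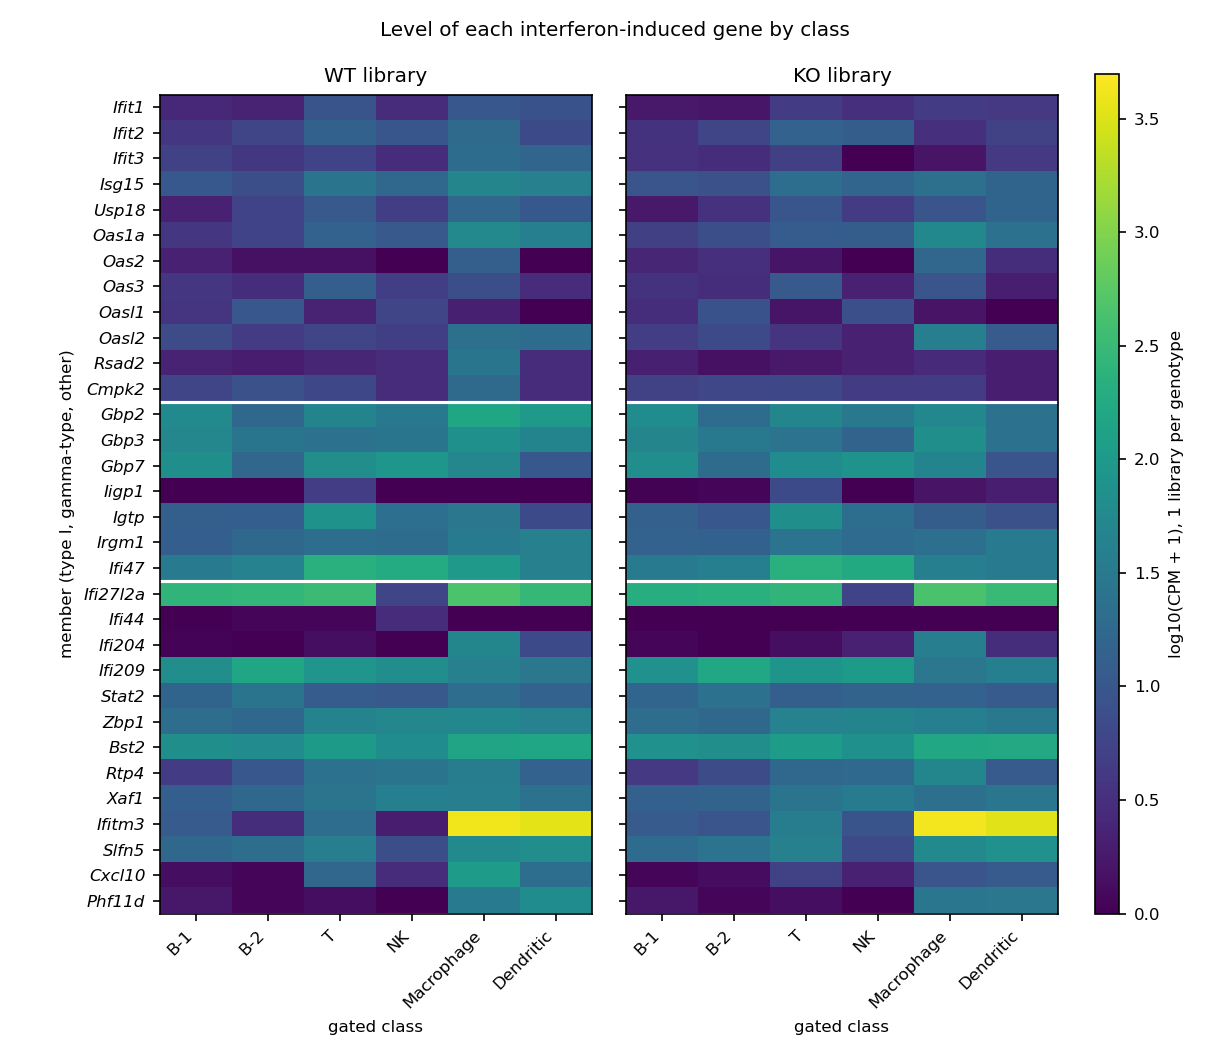
Level of each of the 32 measured members in 6 gated classes of the WT (left) and KO (right) library, as log10(CPM + 1) from dark to bright; white lines part type I, gamma-type and other members, and there is 1 library per genotype. Ifitm3 is bright in macrophage and dendritic barcodes alone, and Ifi27l2a is bright in every class but NK.

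With all barcodes counted, B-1 and B-2 differed in 10 members in the same direction in both libraries. A member was called between classes where it had at least 50 UMIs, the ratio reached 1.5 or its inverse, and the 95% interval did not include 1. Of 25 members that could be compared in both libraries, 3 were called higher in B-1 in both, where 7.44% of all genes were. All 3 were guanylate-binding proteins, with B-1 to B-2 ratios of 3.51 in WT and 3.12 in KO for Gbp2, 1.96 in WT and 1.57 in KO for Gbp3 and 4.45 in WT and 3.22 in KO for Gbp7. Another 7 were called higher in B-2 in both, against 10.1% of all genes. These were Ifit2, Usp18, Oas1a and Oasl1 of the type I group and Ifi209, Stat2 and Rtp4 of the others. Their B-1 to B-2 ratios were 0.578 in WT and 0.495 in KO for Ifit2, 0.259 in WT and 0.338 in KO for Usp18, 0.612 in WT and 0.610 in KO for Oas1a and 0.306 in WT and 0.272 in KO for Oasl1. For the others they were 0.429 in WT and 0.457 in KO for Ifi209, 0.575 in WT and 0.644 in KO for Stat2 and 0.365 in WT and 0.515 in KO for Rtp4. The WT call of Ifit2 rested on 1 B-2 barcode, which held 13 Ifit2 UMIs. Without the barcode with most type I UMIs in each class, WT Ifit2 was at 2.86 CPM in B-1 and 2.87 in B-2. In KO it was then at 2.42 and 4.77 CPM. Usp18, Oas1a and Oasl1 stayed higher in WT B-2, at 4.15, 4.31 and 8.94 CPM against 1.01, 2.81 and 2.71 in B-1. Oasl2 lay on opposite sides of 1, with ratios of 1.77 in WT and 0.627 in KO. Between T and NK barcodes, 7 of 20 members were called higher in T in both libraries, against 6.42% of all genes, and 0 were called higher in NK in both, against 8.67%. The 7 were Oas3, Gbp2, Igtp, Ifi27l2a, Bst2, Ifitm3 and Slfn5, and the ratios were 3.49 in WT and 3.28 in KO for Igtp and 5.45 in WT and 7.02 in KO for Slfn5. T barcodes exceeded B-1 for 14 of 26 members in both libraries and B-1 exceeded T for 2, Oasl1 and Gbp3, against 23.1% and 13.6% of all genes. Among the 14, the ratios were 8.58 in WT and 10.9 in KO for Usp18 and 6.51 in WT and 6.48 in KO for Ifi47. Macrophages exceeded B-1 for 13 of 25 members and B-1 exceeded macrophages for 1, Ifi209, against 15.9% and 15.1%. Phf11d, with ratios of 44.3 in WT and 35.6 in KO, and Ifitm3, with 405 in WT and 412 in KO, were the furthest apart of these.

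Few barcodes carried the type I signal. In B-1, 25.7% of WT and 15.3% of KO barcodes had any type I UMI, at median depths of 9115 and 4617 UMIs. With every barcode thinned to 2000 UMIs the shares were 6.20% (5.46% to 7.01%, exact Clopper-Pearson interval) and 6.13% (5.55% to 6.76%), which overlapped. Thinning left out 589 WT and 5457 KO barcodes of fewer UMIs, over all classes. Thinned shares in T barcodes were 13.5% and 12.01%, and in B-2 6.65% and 7.11%. The gamma-type shares at that depth were 36.2% and 35.1% in B-1 and 55.1% and 57.4% in T. No class is known to lack the type I genes, so the share that free RNA gives them was not measured. For Ifi27l2a, which NK barcodes nearly lacked, the thinned share was 0.813% and 0.515% in NK (unthinned median depths 3276.5 and 1851 UMIs) against 36.6% and 29.3% in B-1.

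The type I UMIs were also unevenly spread among the barcodes that had them. The 1% of B-1 barcodes with most type I UMIs (39 in WT, 68 in KO) held 28.0% and 19.9% of them but 1.66% and 1.97% of all UMIs of the class. The 1% with most gamma-type UMIs held 6.38% and 8.12% of that group's UMIs. In T barcodes the type I shares of the top 1% were 26.2% and 20.8%, against 6.13% and 6.64% for the gamma-type group. The part of the type I group's smaller number of UMIs in these shares was not tested. Over all B barcodes, those of no subset included, 47 of 6453 WT barcodes (0.728%, 0.536% to 0.967%) had 5 or more type I UMIs. These held 26.8% of the type I UMIs and 1.16% of all UMIs. In KO 20 of 13175 barcodes (0.152%, 0.0927% to 0.234%) did, with 9.17% of the type I UMIs. At 2000 UMIs per barcode the shares were 0.190% and 0.0501%, from 12 WT and 5 KO barcodes, with intervals of 0.0983% to 0.332% and 0.0163% to 0.117% that overlapped. The B-1 barcode with most type I UMIs held 82 in WT and 35 in KO.

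**Figure D2:**
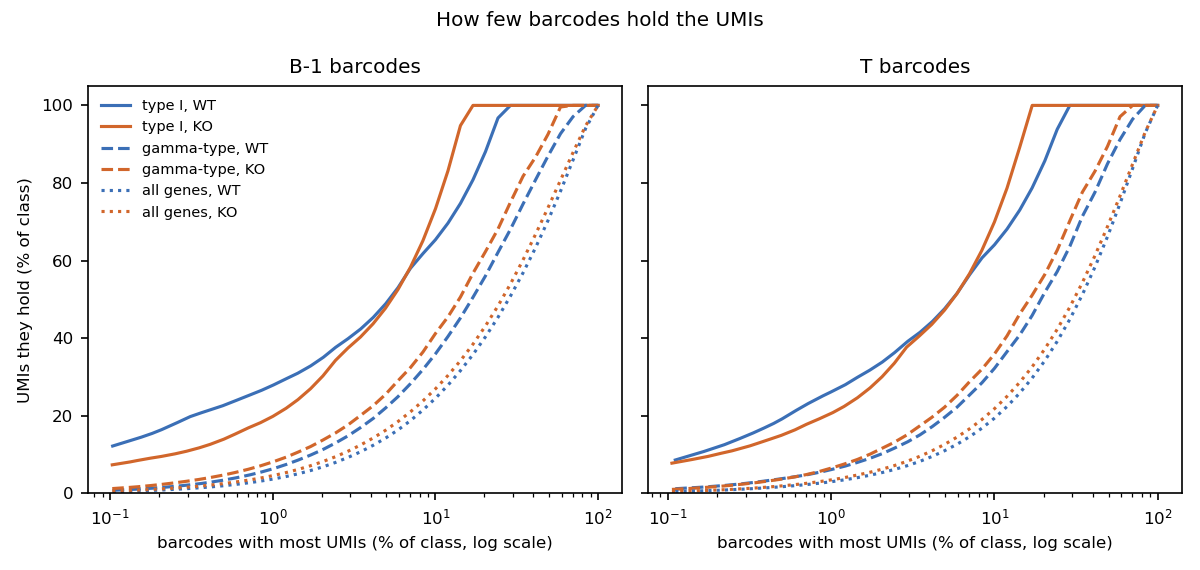
Share of the UMIs of a class (vertical axis, %) held by the barcodes with most of them (horizontal axis, % of the class, log scale), for type I members (solid), gamma-type members (dashed) and all genes (dotted) in B-1 (left) and T (right) barcodes of WT (blue) and KO (orange). At 1% of B-1 barcodes the type I curves stand at 28.0% and 19.9% and the gamma-type curves at 6.38% and 8.12%.

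The type I members were found together in the same barcodes. Barcodes with at least 2 UMIs over Ifit3 and Isg15 were set against the rest of their class, and those 2 genes were left out of the values. In B-1, 58 WT and 24 KO barcodes were chosen. In WT the other 9 type I members with at least 50 UMIs were all higher in the chosen barcodes, with ratios of 2.52 (Oasl2) to 66.3 (Ifit1) and a median of 10.1. Rsad2 had a ratio of 34.9 and Ifit2 one of 15.6. The 6 gamma-type members had a median of 1.42, from 1.04 (Gbp3) to 2.65 (Ifi47). In KO the medians were 2.68 over 7 type I members and 1.32 over 6 gamma-type members, and 4 of the 7 had 1 or 2 UMIs in the chosen barcodes. Ifit1, Usp18 and Rsad2 had fewer than 50 UMIs in KO B-1 and are not in that median, and their ratios there were 46.0, 82.7 and 30.7. Of the members of neither group, Rtp4 followed the type I pattern most in B-1, with ratios of 13.5 in WT and 8.10 in KO. Slfn5 stood at 6.33 and 2.999, and Stat2 at 1.55 and 0.801. In T, 33 WT and 18 KO barcodes gave type I medians of 8.54 over 5 and 7.48 over 4 members, beside gamma-type medians of 2.22 and 1.57. In B-2, 12 KO barcodes gave medians of 12.5 over 3 type I and 5.05 over 6 gamma-type members, the latter reaching 10.4 (Igtp), so that there both groups were higher in the chosen barcodes. Each of these members had 8 or fewer UMIs in them. Cxcl10, the chemokine that draws CXCR3-bearing T cells, had a ratio of 23.3 in WT T barcodes. Barcodes chosen by 2 UMIs of Gbp2 and Igtp were more common (697 and 585 in B-1) and gave smaller type I ratios there. The B-1 type I medians were 1.57 in WT and 1.24 in KO, beside gamma-type medians of 1.34 and 1.44 over 4 members. In T the type I medians were 2.18 and 1.81, beside gamma-type medians of 1.39 and 1.46. In B-2 the gamma-type medians were the larger, 3.45 and 2.58, beside type I medians of 1.48 (1 member) and 0.854 (4 members). Chosen barcodes were deeper than the rest in B-1 (medians of 16009.5 and 9083 UMIs in WT), and the part of depth in these ratios was not tested.

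**Figure D3:**
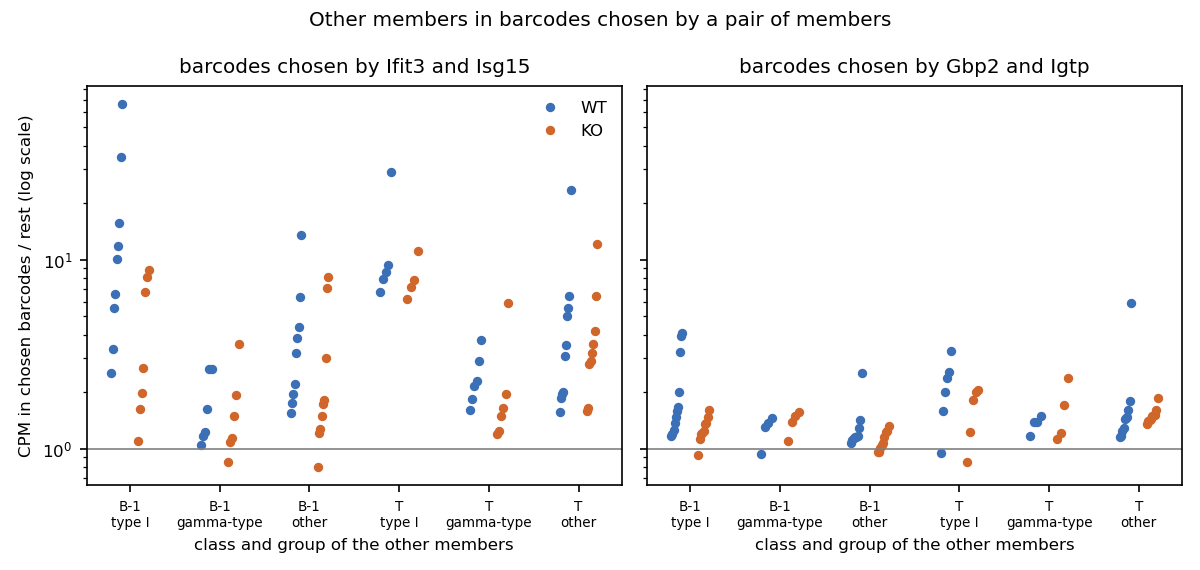
Ratio of CPM in chosen barcodes to the rest of the class (log scale), 1 point per member with at least 50 UMIs in that library, for barcodes chosen by Ifit3 and Isg15 (left) and by Gbp2 and Igtp (right), in WT (blue) and KO (orange). The line marks 1; type I members in the left panel reach 66.3 in WT B-1 barcodes, and gamma-type members in B-1 stay at or below 3.59.

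The KO to WT comparison asks whether these genes differ with the genotype. In B-1 barcodes the type I sum was 41.4 CPM in WT and 33.9 CPM in KO, with a KO to WT ratio of 0.820 (0.764 to 0.881). The gamma-type ratio was 0.981 (0.954 to 1.01). WT barcodes were the deeper, and with all thinned to 2000 UMIs the type I ratio was 0.822. Outside the barcodes with 5 or more type I UMIs (29 WT and 10 KO) the type I level was 31.1 CPM in WT and 31.1 CPM in KO. The lower KO sum was therefore not seen in the other B-1 barcodes. That cut was not matched for depth, and the part of depth in it was not tested. Of 28 members with at least 50 UMIs over both libraries, 3 were called lower and 0 higher in KO, where 5.21% of all genes were called in either direction, 1.43% lower and 3.78% higher. The 3 were all of the type I group. Ifit1 was at 1.65 CPM (70 UMIs) in the WT and 0.782 CPM (31 UMIs) in the KO library, giving a ratio of 0.474 (0.300 to 0.733). Ifit3 was at 4.13 CPM (175 UMIs) in the WT and 2.32 CPM (92 UMIs) in the KO library, giving a ratio of 0.562 (0.432 to 0.728). Oasl2 was at 6.21 CPM (263 UMIs) in the WT and 3.63 CPM (144 UMIs) in the KO library, giving a ratio of 0.585 (0.474 to 0.720). All 3 kept to the rule without the barcode with most type I UMIs in each library, with Ifit3 at 0.642 (0.481 to 0.851). The WT barcode left out held 82 type I UMIs, and the next one, with 74, was kept. With barcodes thinned to 2000 UMIs 1 of 21 members was called lower, Ifit3 at 0.465. Oasl2 was then at 0.808 and not called, and Ifit1 had too few UMIs to be compared. Usp18 had a ratio of 0.698 (0.433 to 1.11). At the other end Oas1a stood at 2.83 CPM (120 UMIs) in the WT and 4.09 CPM (162 UMIs) in the KO library, giving a ratio of 1.44 (1.13 to 1.84), just under the fold needed. Oas2 (1.28), Irgm1 (1.13) and Slfn5 (1.12) followed. The median log2 ratio was -0.27 over the 12 type I and 0.03 over the 6 gamma-type members tested, beside 0.03 over all genes. Ifi27l2a, with the most UMIs, was at 266 CPM (11268 UMIs) in the WT and 202 CPM (8018 UMIs) in the KO library, giving a ratio of 0.761 (0.739 to 0.783) that was below 1 but short of the fold.

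In T barcodes Ifit1 and Oasl2 were again called lower in KO. The type I sum was 100.3 CPM in WT and 81.2 CPM in KO, for a ratio of 0.809 (0.729 to 0.898), and the gamma-type ratio was 0.995 (0.950 to 1.04). Outside the barcodes with 5 or more type I UMIs (17 WT and 6 KO) the type I levels were 75.4 and 72.9 CPM, a ratio of 0.967. The part of depth in that cut was not tested. Of 26 members tested, 3 were called lower and 1 higher in KO, against 1.51% and 3.79% of all genes (5.31% in either direction). Cxcl10 was at 15.4 CPM (132 UMIs) in the WT and 4.39 CPM (34 UMIs) in the KO library, giving a ratio of 0.285 (0.189 to 0.418). A single WT barcode held 38 of those 132 UMIs, and without it and its KO counterpart the ratio was 0.294 (0.181 to 0.461). Ifit1 was at 8.17 CPM (70 UMIs) in the WT and 3.61 CPM (28 UMIs) in the KO library, giving a ratio of 0.442 (0.275 to 0.695). Oasl2 was at 4.90 CPM (42 UMIs) in the WT and 2.71 CPM (21 UMIs) in the KO library, giving a ratio of 0.553 (0.311 to 0.955). With barcodes thinned to 2000 UMIs 1 of 21 members was called lower, Cxcl10 at 0.208, and Ifit1 and Oasl2 had too few UMIs to be compared. Rtp4, a chaperone of receptors that is induced by interferon, was next at 0.687. Ifi27l2a stood at 0.803 (0.758 to 0.850). The member called higher was Ifitm3, at 19.95 CPM (171 UMIs) in the WT and 35.8 CPM (277 UMIs) in the KO library, giving a ratio of 1.79 (1.48 to 2.18). The summed macrophage markers also stood higher in KO T barcodes, at 33.3 CPM against 4.78 in WT, as did the B markers (161 against 38.2 CPM), and their part in the T ratios was not tested. Iigp1 followed at 1.52 (0.943 to 2.48), with an interval that included 1, then Irgm1 (1.21) and Stat2 (1.13).

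**Figure D4:**
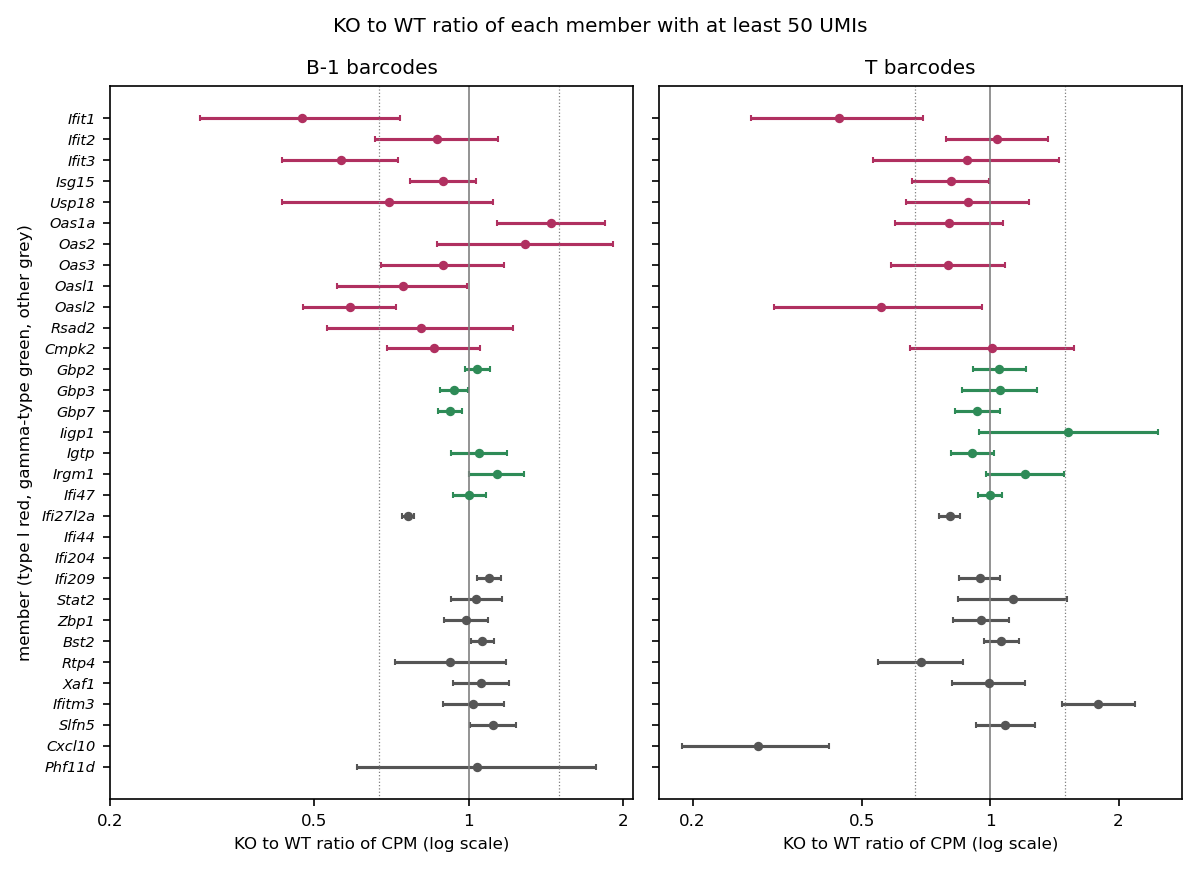
KO to WT ratio of CPM (log scale) of each member with at least 50 UMIs over both libraries in B-1 (left) and T (right) barcodes, with bars for the 95% counting interval, type I members in red, gamma-type in green and others in grey. The dotted lines mark 1.5 and its inverse; Ifit1 lies at 0.474 and 0.442, while the gamma-type members of B-1 lie between 0.919 and 1.13.

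In B-2 and NK barcodes the intervals of both summed ratios included 1. In B-2 the type I sums of 48.3 and 47.5 CPM gave a ratio of 0.983 (0.846 to 1.14), and the gamma-type ratio was 1.01 (0.920 to 1.10). Of 21 members tested 1 was called lower and 1 higher in KO, against 1.86% and 1.44% of all genes (3.29% in either direction). Rtp4 was at 9.25 CPM (58 UMIs) in the WT and 6.02 CPM (53 UMIs) in the KO library, giving a ratio of 0.651 (0.440 to 0.962), which became 0.726 (0.486 to 1.09) without the barcode with most type I UMIs. Ifitm3 was at 2.07 CPM (13 UMIs) in the WT and 8.41 CPM (74 UMIs) in the KO library, giving a ratio of 4.06 (2.23 to 7.97). Macrophage markers stood at 80.8 and 131 CPM in the same barcodes. Most of these marker UMIs were Apoe (484 in WT and 966 in KO), which was not counted against B cells. C1qa had 1 UMI in WT and 43 in KO, C1qb 4 and 37, Fn1 3 and 41 and Cd14 2 and 24, while Adgre1 had 10 and 9. The part of macrophage RNA in the Ifitm3 ratio was not tested. Oasl2 (1.65, with an interval that included 1), Oas1a (1.45) and Gbp7 (1.27) were the next highest, and Cmpk2 (0.713), Irgm1 (0.779) and Igtp (0.791) the next lowest. Ifit1 and Ifit3, which were lower in KO B-1, had fewer than 50 UMIs over both libraries in B-2 and were not compared. In NK barcodes the type I sums rested on 61 WT and 50 KO UMIs and gave a ratio of 0.968 (0.652 to 1.43), and the gamma-type ratio was 0.912 (0.780 to 1.07). Of 7 members tested 1 was called higher and 0 lower in KO, against 2.89% and 2.14% of all genes (5.03% in either direction). Ifi209 was at 64.4 CPM (66 UMIs) in the WT and 104 CPM (90 UMIs) in the KO library, giving a ratio of 1.61 (1.16 to 2.25). In these barcodes B markers stood at 52.7 CPM in WT against 199 in KO and macrophage markers at 4.88 against 55.3, and their part was not tested. Bst2 had a ratio of 1.13, and Xaf1 (0.797), Zbp1 (0.908), Gbp7 (0.926), Ifi47 (0.938) and Gbp2 (0.990) lay below 1 without being called.

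In macrophages both summed groups were lower in KO over all barcodes, and the lower type I sum rested on 1 WT barcode. The type I sum was 250.3 CPM in WT (224 UMIs, 80 barcodes) and 156 CPM in KO (272 UMIs, 297 barcodes), a ratio of 0.622 (0.520 to 0.746). A single WT barcode held 117 of the 224 UMIs (52.2%), and the next WT barcode held 9. That barcode had 7715 UMIs, among them 74 of macrophage markers and 0 of B, T, NK, dendritic and large-macrophage markers. It carried UMIs of 29 of the 32 members, including 86 of Cxcl10, 29 of Isg15 and 23 of Rsad2. Without the barcode with most type I UMIs in each library the type I sums were 121 and 147 CPM, and the ratio turned to 1.22 (0.971 to 1.55). The gamma-type sum kept its direction: the levels of 429 and 238 CPM gave a ratio of 0.555 (0.482 to 0.639), and 0.609 without the barcode with most gamma-type UMIs in each library.

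Of 19 members tested in macrophages, 5 were called lower and 0 higher in KO, against 3.57% and 3.43% of all genes (7.01% in either direction). Without the barcode with most type I UMIs in each library, 2 of 17 were called lower and 2 higher, against 3.48% of all genes lower and the same share higher. Gbp2 was at 149.7 CPM (134 UMIs) in the WT and 52.7 CPM (92 UMIs) in the KO library, giving a ratio of 0.352 (0.267 to 0.462), and 0.340 (0.257 to 0.449) without that barcode. Ifi47 was at 97.2 CPM (87 UMIs) in the WT and 38.4 CPM (67 UMIs) in the KO library, giving a ratio of 0.395 (0.283 to 0.549), and 0.438 (0.312 to 0.616) without it. These 2 gamma-type members were called either way, whereas the other 3 were not. Cxcl10 was at 112 CPM (100 UMIs) in the WT and 8.59 CPM (15 UMIs) in the KO library, giving a ratio of 0.0769 (0.0415 to 0.133) that became 0.547 (0.246 to 1.22). Isg15 was at 48.1 CPM (43 UMIs) in the WT and 22.3 CPM (39 UMIs) in the KO library, giving a ratio of 0.465 (0.293 to 0.734) that became 1.13 (0.584 to 2.30). Xaf1, an inhibitor of the apoptosis blocker XIAP, had a ratio of 0.606 (0.371 to 0.994) that became 0.686 (0.414 to 1.15). Oasl2 and Rtp4 moved the other way: their ratios of 1.64 (0.980 to 2.86) and 1.36 (0.897 to 2.11) became 2.55 (1.36 to 5.21) and 1.61 (1.02 to 2.61), which met the rule. Bst2 (1.15) and Ifitm3 (1.04) lay close to 1, as did Gbp3 (0.960) and Ifi27l2a (0.983). The gated macrophages were not alike in make-up: the markers of large peritoneal macrophages summed to 1903 CPM in WT and 1174 in KO. B markers summed to 368 and 126 CPM, and the part of either in these ratios was not tested.

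**Figure D5:**
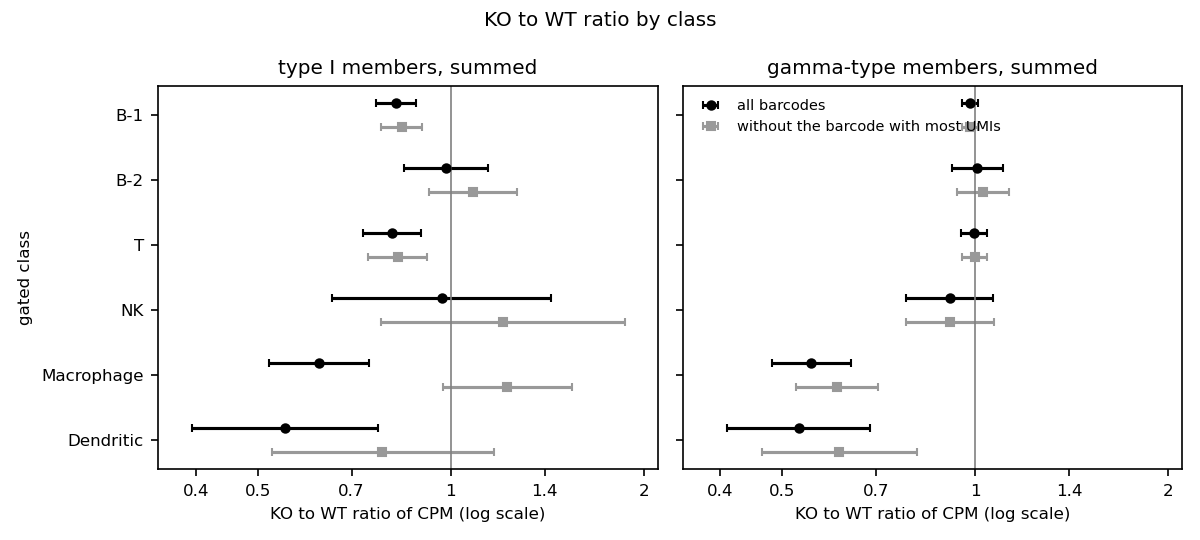
KO to WT ratio of the summed type I (left) and gamma-type (right) members by class (log scale), with bars for the 95% counting interval, over all barcodes (black circles) and without the barcode with most UMIs of the group in each library (grey squares). The macrophage type I ratio moves from 0.622 to 1.22, across the line at 1, and the gamma-type ratio from 0.555 to 0.609.

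Dendritic barcodes were the fewest. Their type I sums of 141 CPM (74 UMIs, 49 barcodes) and 77.9 CPM (75 UMIs, 155 barcodes) gave a ratio of 0.551 (0.394 to 0.770). A single WT barcode held 29 of the 74 UMIs, and without the barcode with most in each library the ratio was 0.781 (0.527 to 1.17). The gamma-type sums of 239 and 127 CPM gave 0.530 (0.410 to 0.686), and 0.613 without the barcode with most. Of 10 members tested 2 were called lower and 0 higher, against 3.74% and 3.95% of all genes (7.69% in either direction). Gbp2 was at 97.4 CPM (51 UMIs) in the WT and 23.9 CPM (23 UMIs) in the KO library, giving a ratio of 0.245 (0.143 to 0.408), and 0.371 (0.208 to 0.652) without the barcode with most type I UMIs. Phf11d, a zinc-finger protein, was at 61.1 CPM (32 UMIs) in the WT and 28.0 CPM (27 UMIs) in the KO library, giving a ratio of 0.458 (0.264 to 0.790). For Phf11d 20 of the 32 WT UMIs lay in 1 barcode, and without it and its KO counterpart the ratio was 1.15 (0.562 to 2.51). Zbp1 (0.716) and Irgm1 (0.776) were the next lowest, and Ifi209 (1.34), Slfn5 (1.12), Bst2 (1.10) and Ifi27l2a (1.05) the highest. Gbp2 was thus the member called lower in KO in both myeloid classes, while its ratios in B-1 (1.04), B-2 (1.17), T (1.05) and NK (0.990) were not called.

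Other genes of the interferon pathway were read by the same rule from a list of receptors, signalling proteins, ligands and further induced genes, 71 of which had a row. Called genes were 5 of 62 tested in B-1 and 3 of 52 in B-2, 3 of 62 in T and 5 of 40 in NK barcodes, where 5.21%, 3.29%, 5.31% and 5.03% of all genes were. In macrophages 4 of 41 were called, 3 of them lower in KO, against 7.01% of all genes. In dendritic barcodes 7 of 29 were called, 6 of them lower, against 7.69%. Irf1, a transcription factor induced most strongly by interferon gamma, was called lower in KO in 4 classes. In B-2 it was at 104 CPM in WT, 51.8 CPM in KO, ratio 0.499, and in T at 144 CPM in WT, 90.9 CPM in KO, ratio 0.630. In macrophages it was at 139 CPM in WT, 59.0 CPM in KO, ratio 0.426, and in dendritic barcodes at 65.0 CPM in WT, 39.4 CPM in KO, ratio 0.607. Irf9, the DNA-binding subunit of the type I complex, was called lower in macrophages (40.2 CPM in WT, 23.5 CPM in KO, ratio 0.584). These macrophage and dendritic calls of Irf1 and Irf9 held without the barcode with most type I UMIs. Among the ligands, Ifng was called lower in KO NK barcodes (266 CPM in WT, 160.0 CPM in KO, ratio 0.601) and was short of the fold in T (108 CPM in WT, 72.4 CPM in KO, ratio 0.670). Ifnb1 had 0 UMIs in all 6 classes of both libraries. Ifnar1, a chain of the type I receptor, was called higher in NK (70.2 CPM in WT, 109 CPM in KO, ratio 1.56), and Irf7, an amplifier of type I interferon, lower (194 CPM in WT, 119 CPM in KO, ratio 0.611). Of the induced genes, Slfn1 (6.63 CPM in WT, 11.8 CPM in KO, ratio 1.77), Gbp8 (1.25 CPM in WT, 2.30 CPM in KO, ratio 1.84) and Ddx60 (2.34 CPM in WT, 3.68 CPM in KO, ratio 1.58) were called higher in B-1, and Gbp10 lower (0.920 CPM in WT, 0.479 CPM in KO, ratio 0.521). Gbp8 and Gbp10 are close relatives whose reads the counting could split. Ifitm1 (2.68 CPM in WT, 18.3 CPM in KO, ratio 6.83) and Ifitm2 (19.5 CPM in WT, 40.1 CPM in KO, ratio 2.06), relatives of Ifitm3, were called higher in T. In B-2 Ifitm2 was higher (3.03 CPM in WT, 5.91 CPM in KO, ratio 1.95) and Tgtp2 lower (6.06 CPM in WT, 3.41 CPM in KO, ratio 0.563). Ms4a4c was called higher in NK (47.8 CPM in WT, 92.1 CPM in KO, ratio 1.93), macrophage (80.5 CPM in WT, 123 CPM in KO, ratio 1.53) and dendritic barcodes (107 CPM in WT, 176 CPM in KO, ratio 1.65). In dendritic barcodes the 3 lowest were Trafd1 (87.9 CPM in WT, 43.6 CPM in KO, ratio 0.496), Jak2 (208 CPM in WT, 119 CPM in KO, ratio 0.573) and Psmb9 (281 CPM in WT, 167 CPM in KO, ratio 0.595), a subunit of the immunoproteasome.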

How the data were processed

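The deposited expression files hold unnormalised UMI counts per gene and barcode for each library. Per the file headers cellranger 6.1.2 wrote them. Per the submitters' processing notes the tools were Cell Ranger 6.0.1 and Seurat 4.3.0, on mm39, so the annotation behind the counts is uncertain and no coordinates are taken from them. Contig tables of the receptor libraries were used only to mark barcodes. Kept barcodes had 200 or more genes and less than 10% of UMIs from mitochondrial genes. Scrublet (scanpy 1.11.5) scored doublets, its automatic threshold marked 0 WT and 2067 KO barcodes and so had not worked in WT, and the highest-scoring 0.8% per 1000 barcodes were removed instead (7.87% and 17.2%). Gates needed 3 own-lineage marker UMIs (10 for macrophages, 5 for dendritic cells) and at most 2, or 10% of their own, of other lineages, Apoe not counting against B cells. B barcodes were B-1 where 2/3 of at least 3 subset-marker UMIs were B-1 markers, and B-2 in the reverse case. Class sums were scaled to CPM, ratios carry exact conditional binomial intervals at 95% and shares exact Clopper-Pearson intervals. KO to WT calls needed 50 UMIs over both libraries, a 1.5-fold ratio and an interval without 1. The rule was tested on simulated counts, drawn independently from the class totals of WT B-1 barcodes. That setting held no single barcodes, so it does not cover UMIs gathered in few of them. Every member may be named. For each class the text prints the 4 highest and 4 lowest ratios and all calls, for each member the level in its highest WT class, and for the 12 members with most UMIs all levels. Of the pathway list at most the 3 highest and 3 lowest calls per class were to be named, and Irf1 in dendritic barcodes, Ifng in T and Ifnb1 were added after their values were seen. A further gene of that list is not reported here. Members, lists and gates were chosen with earlier results of these data known. Alternatives covered doublets, mitochondrial limit, depth, gates, scaling, group membership, receptor contigs and single barcodes.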

Additional observations from a re-analysis of the deposited data

Results flagged for a closer look

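The summed groups were higher in KO in one and lower in the other of 2 subsets of macrophages, the barcodes with and without 3 or more UMIs of large macrophage markers. With them (33 WT and 82 KO barcodes) the type I sum was 72.3 CPM in WT against 129.9 in KO, for a KO to WT ratio of 1.80 (1.18 to 2.79), and the gamma-type sum 191 CPM in WT against 268 in KO, for a KO to WT ratio of 1.41 (1.08 to 1.85). Without them (47 WT and 215 KO barcodes) the type I sum was 436 CPM in WT against 169 in KO, for a KO to WT ratio of 0.387 (0.315 to 0.475), and the gamma-type sum 677 CPM in WT against 223 in KO, for a KO to WT ratio of 0.330 (0.278 to 0.391). The cut of 3 UMIs was not matched for depth, and WT macrophages were deeper (medians of 9891.5 and 5213 UMIs). The subsets may therefore not hold the same cells in both libraries. Icam2, a marker in that list, also had 1462 UMIs in WT B-1 barcodes. The difference between the subsets was not tested, as there is 1 library per genotype. Leaving the barcode with most type I UMIs out of each library, the type I sum in barcodes without large macrophage markers was 172 CPM in WT against 156 in KO, for a KO to WT ratio of 0.908 (0.689 to 1.21), and the gamma-type sum was 639 CPM in WT against 219.7 in KO, for a KO to WT ratio of 0.344 (0.289 to 0.409). The WT barcode left out was chosen by its type I UMIs and held 22 gamma-type UMIs, so this bears little on the gamma-type ratio. The subsets were not recomputed without the barcodes with most gamma-type UMIs. Gbp2 in barcodes without the markers was at 253 CPM in WT against 47.9 in KO, for a KO to WT ratio of 0.189 (0.135 to 0.263), and in barcodes with them at 50.4 CPM in WT against 62.3 in KO, for a KO to WT ratio of 1.24 (0.713 to 2.19). Gbp7 in barcodes with the markers was at 28.5 CPM in WT against 71.0 in KO, for a KO to WT ratio of 2.49 (1.31 to 5.07), and in barcodes without them at 73.0 CPM in WT against 33.4 in KO, for a KO to WT ratio of 0.457 (0.279 to 0.754).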

How the results depend on the processing

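Of the recomputed group ratios and B-cell shares, 98 moved by less than their counting interval, 11 by more, and 1 turned. Without the barcode with most UMIs the macrophage type I ratio turned to 1.22 and the dendritic one moved to 0.781. At 2000 UMIs per barcode the type I ratios were 0.685 in T, 0.384 in macrophage and 0.818 in dendritic barcodes, and the gamma-type ratios 0.439 in macrophage and 0.292 in dendritic barcodes. The shares of B barcodes with 5 or more type I UMIs were then 0.190% in WT and 0.0501% in KO. With Ifit, Oas and Mx genes alone the macrophage type I ratio was 0.843, and with Gbp genes, Iigp1 and Igtp alone the gamma-type ratios were 1.13 in B-2 and 0.399 in dendritic barcodes. Of the recomputed ratios of single members, 524 moved by less than their interval, 29 by more, and 2 turned without the barcode with most UMIs of the gene: Isg15 in macrophages (1.13) and Phf11d in dendritic barcodes (1.02). Thinning leaves fewer UMIs and fewer members tested (4 against 19 in macrophages), and the cause of the other moves was not tested. The single-gene, type I-barcode, macrophage-subset and shared-barcode alternatives were chosen after seeing the data. No paired analysis was possible because there is 1 expression library per genotype. Depth limits the type I members most, since 12 genes together gave 50 KO UMIs in NK and 75 in dendritic barcodes, and reads of close relatives (Gbp, Oas, Ifi200 and Schlafen genes) could be split by the counting.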

Other observations

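In WT 8 barcodes passed a gate for plasmacytoid dendritic cells and were left out of the 6 classes, against 0 in KO. The gate needed at least 5 UMIs of their markers and at most 2 each of B and T markers. The 0 is a count under this gate and does not show that KO lacked such cells. B-1 barcodes held 30 WT and 14 KO UMIs of Siglech, a plasmacytoid marker. Plasmacytoid dendritic cells are the main makers of type I interferon. In the 8 WT barcodes Bst2, which is also a surface marker of these cells, stood at 6385 CPM (398 UMIs). Ifi27l2a was at 689.9 CPM (43 UMIs) and Ifi47 at 289 CPM (18 UMIs). The type I group summed to 8 UMIs (128 CPM) and the gamma-type group to 24 (385 CPM) over the 8 barcodes. Ifitm3, which filled the other dendritic barcodes, had 0 UMIs there.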
